A study of Homo sapiens with 6 samples.

Results

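The genes of the plasminogen activation system were read in WM266.4 cells, a human melanoma line, with and without silencing of RIPK4, a serine/threonine kinase. The 9 genes described here are the members of this system whose symbols matched the gene column of the deposited table exactly, 9 of 24526 genes in all. They are the activator genes PLAU and PLAT, the urokinase receptor gene PLAUR, the serpin genes SERPINE2, SERPINB2 and SERPINI1, the protease trap gene A2M, the plasminogen-binding annexin gene ANXA2 and the clearance receptor gene LRP1.

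Plasminogen is an inactive protease precursor that cells bind at their surface. Cutting by a plasminogen activator turns it into plasmin, which digests fibrin and matrix proteins and is used by invading tumour cells. Activators are held in check by serpins, inhibitors that trap a protease in a covalent complex, and the complexes are then taken up by endocytic receptors at the cell surface. Melanoma cells have long been known as a source of tissue plasminogen activator.

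The 3 neg.si cultures received a negative control siRNA and the 3 RIPK4.si cultures a single RIPK4 siRNA, and RNA was taken 48 h after transfection in both groups. The study's methods call the replicates biological, and both groups come from 1 cell line that carries no other stated alteration. Silencing was transient and the RNA was that of the whole culture, so fewer cells with a transcript and less transcript per cell cannot be told apart.

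Libraries held 28464057 to 31688095 read pairs assigned to genes, and mitochondrial genes took 9.61 to 13.4% of them. RIPK4 transcript stood at 85.8, 76.5 and 54.7 CPM (counts scaled to a common library size) in neg.si and at 19.9, 16.7 and 21.5 CPM in RIPK4.si. It was thus lower in every silenced library, by a log2 fold change of -1.90 (SE 0.203, adjusted p = 0.0102, edgeR's quasi-likelihood test). With 1 library left out, that change stayed between -2.06 and -1.74 and its adjusted p between 0.000476 and 0.106, above 0.05 on leaving out neg.si replicate 2 or any of the RIPK4.si libraries. Melanocytic markers (7 of 7 in the table) summed to 3547 to 3985 CPM in neg.si and 2600 to 2717 CPM in RIPK4.si. Of these, edgeR called 1 lower (PMEL), beside 0.767% of all genes called. DESeq2 called 3 (PMEL, DCT and TYR), beside 2.78%. Groups overlapped for the others, with edgeR log2 fold changes of 0.06 in MLANA, 0.04 in MITF, -0.15 in SOX10 and -0.48 in S100B. Keratinocyte, leukocyte and endothelial markers each summed to under 3 CPM in every library, while the fibroblast list reached 511 to 1041 CPM, nearly all of it from COL1A2. The neg.si libraries differed more from each other in base composition than the RIPK4.si libraries did. The rank correlation of a gene's deviation with its GC content was 0.555, 0.0815 and -0.547 in neg.si, against -0.0525, 0.165 and -0.0788 in RIPK4.si. Replicate 2 of neg.si thus lay within the RIPK4.si range. The part of these differences in the results was not tested beyond the alternatives named with each.

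WM266.4 cells expressed the plasminogen system unevenly. SERPINE2 was among the most abundant transcripts of the cell, PLAT was the plasminogen activator gene that was expressed, and PLAU was at 0 to 3 counts per library. None of the 8 genes with enough counts to be tested passed the test between RIPK4.si and neg.si.

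**Figure D1:**
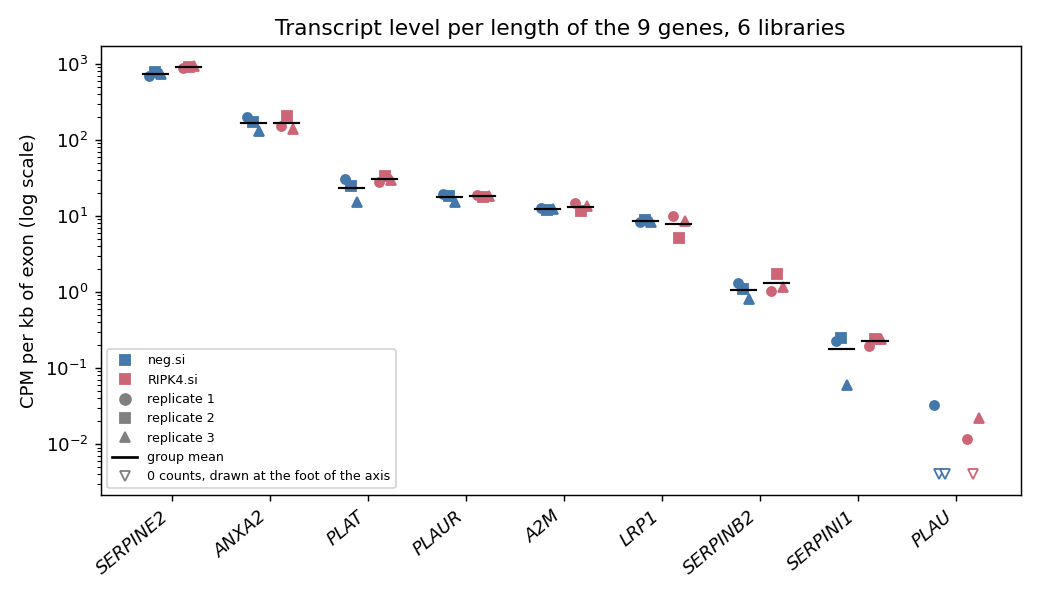
Transcript level of the 9 plasminogen system genes in each library, in CPM per kilobase of exon on a log axis, with neg.si and RIPK4.si side by side. Symbols are libraries, shaped by replicate, and bars are group means, with none drawn for PLAU. Open triangles at the foot of the axis are PLAU libraries with 0 counts. SERPINE2 lies highest, at a neg.si mean of 736.6, and PLAU lowest.

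Levels of different genes were set side by side per kilobase of exon. The length is that of all annotated exons of a gene together, 11574 bases for ANXA2. Lengths of the transcripts in use were not measured, so order and ratios between genes depend on the annotation. On this scale the order in neg.si was SERPINE2, ANXA2, PLAT, PLAUR, A2M, LRP1, SERPINB2, SERPINI1 and PLAU. SERPINE2 held 736.6 ± 45.2 CPM per kilobase (SD, n = 3) and ranked 29 among 24416 genes with an exon length. ANXA2 followed at 167.9 ± 35.6, which is 4.39-fold less than SERPINE2. PLAT stood at 23.4 ± 7.68 and PLAUR at 17.6 ± 2.11 CPM per kilobase, and the neg.si libraries of this pair overlapped, so their order in control cells was not set apart from the spread. In RIPK4.si, where PLAT was at 30.6 ± 2.56 and PLAUR at 18.3 ± 0.704, the ranges did not overlap. Every other neighbouring pair in the order was separated in both groups. A2M (12.3 ± 0.382) and LRP1 (8.51 ± 0.207) formed the middle, and SERPINB2, SERPINI1 and PLAU the foot, with rank 23496 for PLAU.

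The comparison of RIPK4.si with neg.si asks whether RIPK4 silencing changed these transcripts. None of the 8 members that passed the low-count filter was called at an adjusted p under 0.05 by edgeR's quasi-likelihood test, where 125 of all 16297 genes tested, 0.767%, were called, 0.374% with a higher level in RIPK4.si and 0.393% with a lower one. At an unadjusted p under 0.05, 0 of the 8 passed in edgeR, against 10.8% of all genes, and 1 (SERPINE2) in DESeq2, against 10.1% of the same genes. After adjustment 0 of the 8 passed in DESeq2, against 2.78% of all genes. The log2 fold change was above 0 for 6 of the 8, against 46.6% of all genes, and below 0 for 2, with a median of 0.20, beside -0.02 over all genes tested. Without neg.si replicate 3 it was above 0 for 4 of the 8, with a median of 0.038. The 2 groups of libraries did not overlap for 1 of the 8, SERPINE2, against 17.6% of all genes, and 8.23% with RIPK4.si as the higher group. The smallest adjusted p among members was 0.536, for SERPINE2. With 3 against 3 libraries an exact permutation test cannot go below p = 0.1.

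**Figure D2:**
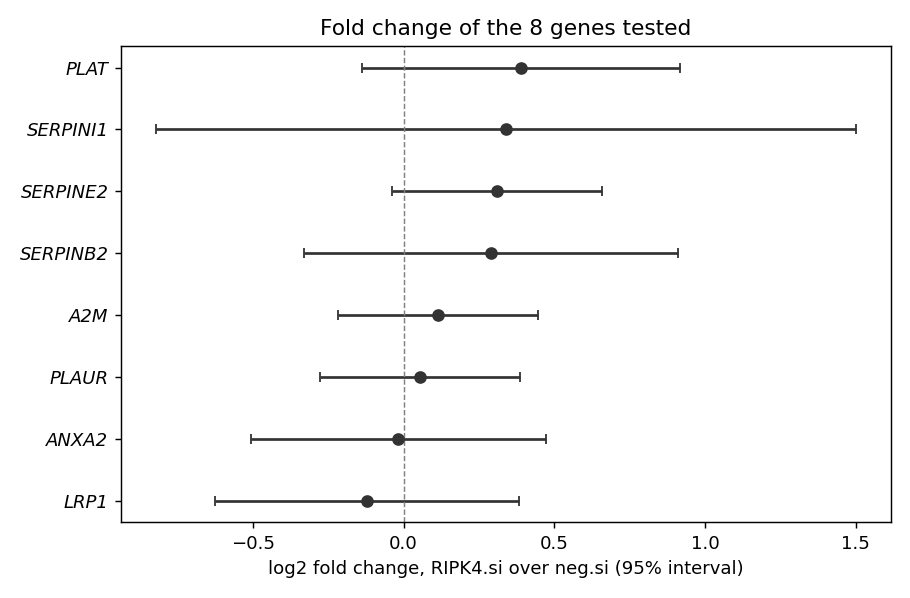
Log2 fold change of RIPK4.si over neg.si for the 8 members tested, with 95% confidence intervals from edgeR's quasi-likelihood fit. Every interval includes 0. The interval of SERPINE2, from -0.04 to 0.66, comes nearest to leaving it.

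Of the activators, the urokinase gene PLAU (chromosome 10, 73909177 to 73917496, plus strand, GRCh38) was close to undetected. Its counts were 3, 0 and 0 in neg.si and 1, 0 and 2 in RIPK4.si. Pooled over each group this made 0.0323 CPM in neg.si (95% exact Poisson interval 0.00667 to 0.0945, counting error only) and 0.0336 CPM in RIPK4.si (0.00693 to 0.0981). In a single library, a count of 0 still allows 0.0944 to 0.104 CPM, a bound that does not apply to the pooled values. PLAU did not pass the low-count filter, so edgeR gave no fold change for it. With so few counts, no difference was detectable at this depth.

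Tissue plasminogen activator, encoded by PLAT (chromosome 8, 42174718 to 42207676, minus strand), was the activator these cells transcribed. Its levels were 235.7, 191.6 and 117.5 CPM in neg.si and 220.2, 259.4 and 234.2 CPM in RIPK4.si. The RIPK4.si libraries sat close together, while neg.si replicate 3 lay far below the other controls, and the groups overlapped. The log2 fold change was 0.39 (SE 0.235, 95% interval -0.14 to 0.92), with an adjusted p of 0.651. Leaving out neg.si replicate 3 brought it to 0.16 (adjusted p = 0.721), and leaving out neg.si replicate 1 raised it to 0.64 (adjusted p = 0.256), so single control libraries set its size. Against PLAU, PLAT transcript per kilobase was 2124-fold higher in neg.si (95% exact binomial interval 727 to 10298) and 2687-fold higher in RIPK4.si (919 to 13031), from 16785 and 21240 PLAT counts. These intervals cover counting error only, and since all 3 neg.si PLAU counts came from replicate 1, the control ratio has no finite value without that library.

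Among all 16297 genes tested, the log2 CPM profiles nearest to that of PLAT over the 6 libraries were those of PLXNB2, BLVRB and NXPH3. Their root mean square differences from PLAT, after centring each gene on its own mean, were 0.0359, 0.0418 and 0.0480, against a median of 0.461 over all genes. The profile of PLAT itself had a root mean square of 0.378 around its mean, much of it from neg.si replicate 3.

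The urokinase receptor gene PLAUR (chromosome 19, 43646095 to 43670547, minus strand) encodes a lipid-anchored surface protein that concentrates urokinase on the membrane. Its transcript stood at 85.8, 82.0 and 67.9 CPM in neg.si and at 84.3, 78.2 and 82.1 CPM in RIPK4.si. The receptor was thus well expressed beside a ligand gene with almost no counts, and its groups overlapped. The log2 fold change was 0.05 (SE 0.148, 95% interval -0.28 to 0.39, adjusted p = 0.962), an interval that leaves out changes of more than 0.39 in either direction.

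SERPINE2 (chromosome 2, 223975045 to 224039318, minus strand) encodes protease nexin-1, a secreted serpin that blocks thrombin, urokinase and plasmin and is kept at the cell surface and matrix by heparan sulphate. Its counts were 190626, 208669 and 212534 in neg.si and 234545, 237081 and 258947 in RIPK4.si, which made 6155, 6948 and 6691 CPM against 7993, 8206 and 8325 CPM. All 3 RIPK4.si libraries lay above all 3 neg.si libraries. The log2 fold change was 0.31 (SE 0.155, 95% interval -0.04 to 0.66), a fold of 1.24 (0.973 to 1.58). This difference did not pass the test (adjusted p = 0.536, edgeR's quasi-likelihood test, and 0.433 in DESeq2), and an exact two-sided permutation test gave p = 0.1, the smallest it can give. Over the alternatives of processing its log2 fold change ranged from 0.28 to 0.36, with an adjusted p from 0.388 to 0.955.

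A promoter of SERPINE2 is shown because SERPINE2 was the most abundant member and the one with groups that did not overlap; those of ANXA2, the next most abundant, and of PLAU, at the foot of the order, are shown for contrast. Sequences are RefSeq promoters on GRCh38.p14, from 250 bases before to 50 after an annotated start, written 5′ to 3′ along the gene. Capitals mark a CCAAT box, an E-box written as CATGTG, the symmetric E-box found in many promoters as CACGTG, the usual letters TATAAA of a TATA box, and a GC box in its common form GGGCGG. Both strands were searched, a copy on the opposite strand is capitalised as its reverse complement, and the motifs were picked with the sequences in view. SERPINE2 is chr2:224031429-224031728 (minus strand), ANXA2 chr15:60397937-60398236 (minus) and PLAU chr10:73910882-73911181 (plus). SERPINE2 and PLAU each have another RefSeq promoter, described after these but not printed.
SERPINE2: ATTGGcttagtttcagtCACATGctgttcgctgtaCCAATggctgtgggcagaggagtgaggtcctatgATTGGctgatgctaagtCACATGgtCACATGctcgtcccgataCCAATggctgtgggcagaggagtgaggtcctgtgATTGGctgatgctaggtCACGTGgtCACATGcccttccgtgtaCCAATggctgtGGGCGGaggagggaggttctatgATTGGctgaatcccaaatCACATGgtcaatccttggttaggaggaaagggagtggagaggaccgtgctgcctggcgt
ANXA2: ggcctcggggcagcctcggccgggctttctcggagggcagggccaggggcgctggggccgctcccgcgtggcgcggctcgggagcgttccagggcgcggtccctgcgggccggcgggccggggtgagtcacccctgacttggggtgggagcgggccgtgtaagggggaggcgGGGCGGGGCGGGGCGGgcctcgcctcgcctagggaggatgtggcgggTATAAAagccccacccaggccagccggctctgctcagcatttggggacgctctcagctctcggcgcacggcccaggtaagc
PLAU: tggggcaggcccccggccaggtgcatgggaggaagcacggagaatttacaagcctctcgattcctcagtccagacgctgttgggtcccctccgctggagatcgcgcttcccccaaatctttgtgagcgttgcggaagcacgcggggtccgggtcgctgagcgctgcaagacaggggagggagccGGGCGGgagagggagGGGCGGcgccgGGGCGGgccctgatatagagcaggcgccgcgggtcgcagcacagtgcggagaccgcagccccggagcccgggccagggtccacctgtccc

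The SERPINE2 promoter shown holds 7 copies of CCAAT, counted on both strands, and 5 of the E-box letters CATGTG. The symmetric E-box is there in 1 copy (7.26% of promoters hold it), as is the GC box (44.95% of promoters). CCAAT was present in 34.6% of 35116 RefSeq promoters of the same length, but 7 or more copies in only 8 of them (0.0228%). CATGTG was present in 11.1% of promoters, and 5 or more copies in 6 (0.0171%). The sequence also repeats: at its best shift, 77 bases, it matched itself at 64.1% of 223 positions. With every promoter given its own best shift between 20 and 200 bases, the median was 36.6%, and 150 of 35116, SERPINE2 included, reached that identity (0.427%). The other SERPINE2 promoter (chr2:224038591-224038890) holds 0 copies of CCAAT, 0 of either E-box and 2 GC boxes. In GENCODE release 44, 1 of 10 SERPINE2 transcripts starts within 50 bases of the start of the promoter shown and 0 within 50 bases of the other. The region shown is intronic, with no exon in it, for 5 longer transcripts. Counts per gene do not tell which start was used. The ANXA2 promoter holds 1 TATAAA (in 11.5% of promoters) and 3 GGGCGG, and 33 of 46 ANXA2 transcripts start there. The PLAU promoter shown also holds 3 GGGCGG, which 15.8% of promoters match or exceed, and the other (chr10:73910360-73910659) holds 0, with 1 CCAAT. A match is a string of letters, not a measured binding site.

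SERPINE2 dominated the serpin transcripts of these cells. Of the counts of 20 serpin genes it took 82.8 ± 2.504% in neg.si and 85.4 ± 2.04% in RIPK4.si (SD, n = 3 each). Its share of all counts was 0.602, 0.683 and 0.707% in neg.si and 0.824, 0.771 and 0.841% in RIPK4.si. Per kilobase, SERPINE2 exceeded PLAT 22.7-, 31.5- and 49.4-fold in neg.si and 31.5-, 27.4- and 30.8-fold in RIPK4.si. SERPINE2 transcript per kilobase thus exceeded that of PLAT in every library, and the ratio ranged more widely among the controls than between the groups. These are transcript levels, not levels or activities of the proteins.

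SERPINB2 (chromosome 18, 63871692 to 63903888, plus strand) encodes plasminogen activator inhibitor type 2, which inhibits urokinase and is largely kept inside cells. It was low, at 3.62, 2.96 and 2.24 CPM in neg.si and 2.86, 4.71 and 3.22 CPM in RIPK4.si, from 71 to 136 counts per library. The groups overlapped and the log2 fold change was 0.29 (SE 0.275, 95% interval -0.33 to 0.91, adjusted p = 0.829). With 1 library left out it ran from 0.058 (without RIPK4.si replicate 2) to 0.485 (without neg.si replicate 1). SERPINI1 (chromosome 3, 167735243 to 167825568, plus strand), which encodes neuroserpin, an inhibitor of tissue plasminogen activator known from the nervous system, had 15, 16 and 4 counts in neg.si and 12, 15 and 16 in RIPK4.si. These are 0.484, 0.533 and 0.126 CPM against 0.409, 0.519 and 0.514 CPM. Only neg.si replicate 3 stood out, and the log2 fold change of 0.34 (SE 0.516) had an interval that reached down to -0.82 (adjusted p = 0.916), so little could be told of it at this depth.

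A2M (chromosome 12, 9067664 to 9116229, minus strand) encodes alpha-2-macroglobulin, which is no serpin but a broad protease trap that encloses plasmin and many other proteases. Its levels were 80.2, 75.5 and 77.0 CPM in neg.si and 93.8, 73.5 and 84.6 CPM in RIPK4.si. The RIPK4.si libraries spread to both sides of the controls, with a log2 fold change of 0.11 (SE 0.147, 95% interval -0.22 to 0.45, adjusted p = 0.893). An antisense gene, A2M-AS1, overlaps it, and since counting ignored strand the reads of the overlap cannot be told apart; A2M-AS1 had 56 counts in all 6 libraries together.

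ANXA2 (chromosome 15, 60347134 to 60402883, minus strand) encodes annexin A2, which with its partner S100A10 binds plasminogen and tissue plasminogen activator at the cell surface. ANXA2 was at 2310.0, 2023 and 1498 CPM in neg.si and 1752, 2392 and 1616 CPM in RIPK4.si. Both groups covered nearly the same range, and the log2 fold change was -0.02 (SE 0.218, 95% interval -0.51 to 0.47, adjusted p = 0.993). S100A10 was at 209.5, 204.7 and 174.1 CPM in neg.si and at 140.4, 172.1 and 139.7 CPM in RIPK4.si. All RIPK4.si libraries lay below all neg.si libraries for S100A10, but the log2 fold change of -0.38 (SE 0.156, 95% interval -0.73 to -0.03) did not pass adjustment (unadjusted p = 0.0369, adjusted p = 0.407). ANXA2 has processed pseudogenes that can share its reads. ANXA2P2 was at 9.20 ± 2.73 CPM in neg.si and 8.18 ± 2.07 in RIPK4.si (log2 fold change -0.17, adjusted p = 0.917), and ANXA2P1 at 0.0546 and 0.0903 CPM, so both were small beside ANXA2.

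LRP1 (chromosome 12, 57128483 to 57213361, plus strand) encodes the endocytic receptor that clears complexes of activators with serpins and takes up protease-loaded alpha-2-macroglobulin. Its levels were 175.3, 182.4 and 174.6 CPM in neg.si and 205.6, 106.6 and 177.0 CPM in RIPK4.si. The controls were nearly equal, with a coefficient of variation of 2.44%, while RIPK4.si replicate 2 lay far below the other RIPK4.si libraries and raised it to 31.2%. The log2 fold change was -0.12 (SE 0.224, 95% interval -0.63 to 0.38, adjusted p = 0.934) and turned to 0.12 without RIPK4.si replicate 2. STAT6, on the opposite strand, overlaps the start of LRP1; with 122.4 ± 17.0 CPM in neg.si and 132.3 ± 8.03 CPM in RIPK4.si it was at 141.4 CPM in that library, the highest of the 6.

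**Figure D3:**
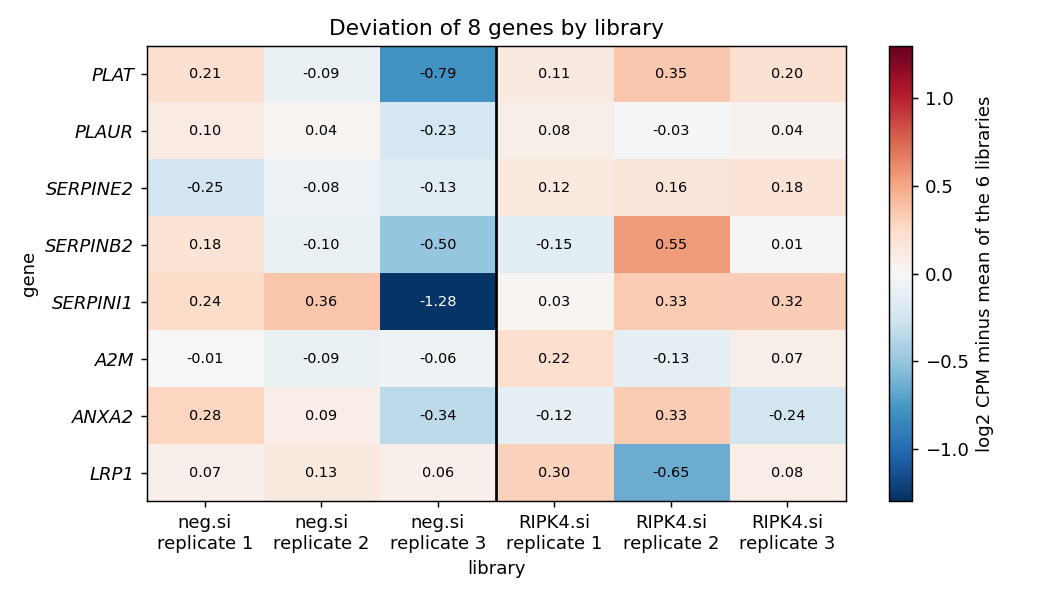
Deviation of each tested member from its own mean over the 6 libraries, on the log2 CPM scale, as a heat map with genes in rows and libraries in columns. The column of neg.si replicate 3 holds the strongest negative values, -1.28 for SERPINI1 and -0.79 for PLAT, and the cell of LRP1 in RIPK4.si replicate 2 is at -0.65. The row of SERPINE2 is negative in all neg.si and positive in all RIPK4.si libraries.

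The heat map shows which libraries held the extreme values. Of the 8 tested members, 5 had their lowest value in neg.si replicate 3: PLAT, PLAUR, SERPINB2, SERPINI1 and ANXA2. RIPK4.si replicate 2 held the highest value of 3 members (PLAT, SERPINB2 and ANXA2) and the lowest of A2M and LRP1. SERPINE2 departed from this, with deviations of -0.25, -0.08 and -0.13 in neg.si and 0.12, 0.16 and 0.18 in RIPK4.si. PLAT had a coefficient of variation of 32.9% in neg.si and 8.36% in RIPK4.si, beside medians over all genes tested of 20.9 and 14.98%. GC content of the longest annotated transcript ran from 40.3% for SERPINI1 to 60.1% for LRP1. Removing each library's trend on this GC content left all 8 members without a call, where 3.27% of all genes were called.

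Beyond the members, 30 of 37 listed genes of the plasminogen system were in the table and 29 were tested. Of these, 1 rose (LRP8), 0 fell, 7 had a log2 fold change above 0 and 22 below, and the median was -0.10. Groups did not overlap for 10 of the 29, against 17.6% of all genes tested, and 10 had an unadjusted p under 0.05, against 10.8%. The 1 edgeR call stands beside 0.767% of all genes. By role, 0 of 3 genes for plasminogen activation, 0 of 8 inhibitors, 0 of 6 receptors and cofactors and 0 of 5 substrates were called. The remaining role, clearance, held 1 called gene of 7, 6 with an unadjusted p under 0.05 and 5 with groups that did not overlap. DESeq2 called 4 of the 29, against 2.78% of all genes, and all 4 were in the clearance group. The list was chosen with earlier results of these data known. Its counts beside the shares of all genes are therefore a description and no independent test.

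**Figure D4:**
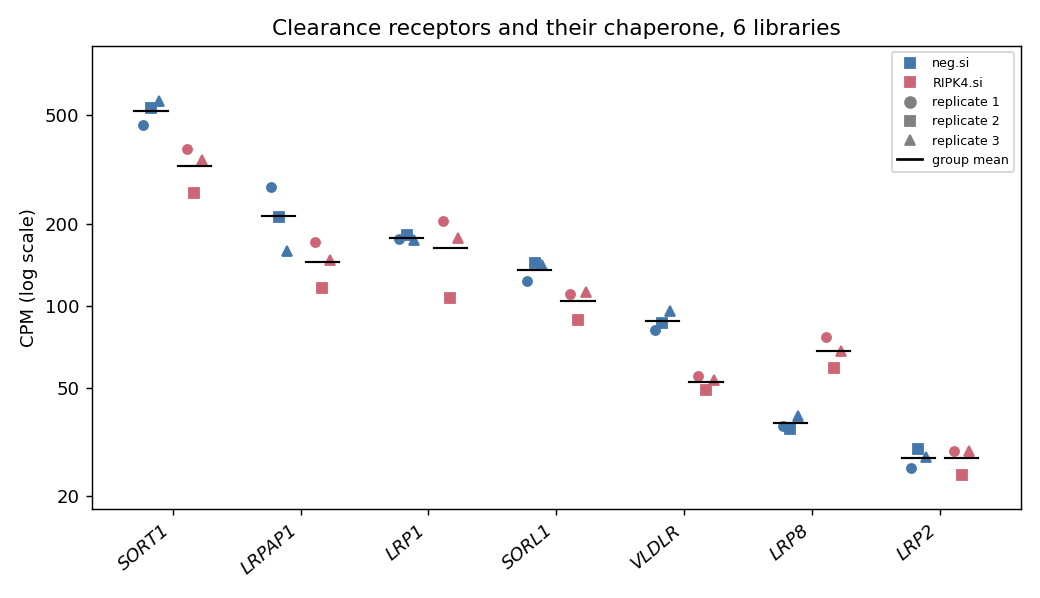
CPM of LRP1 and of 6 listed clearance genes in each library, on a log axis, for neg.si and RIPK4.si. Symbols are libraries, shaped by replicate, and bars are group means. LRP8 lies higher and VLDLR, SORT1 and SORL1 lower in RIPK4.si without overlap, while LRP1 overlaps.

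LRP8 (chromosome 1, 53242364 to 53328469), which encodes a receptor for reelin and apolipoprotein E, was at 36.3, 35.3 and 39.5 CPM in neg.si and 76.8, 59.3 and 68.3 CPM in RIPK4.si. It rose by a log2 fold change of 0.88 (SE 0.155, 95% interval 0.53 to 1.23, adjusted p = 0.0422, edgeR's quasi-likelihood test). The call was narrow: leaving out neg.si replicate 1 or 2 gave adjusted p = 0.0684 and 0.314, and leaving out RIPK4.si replicate 1, 2 or 3 gave 0.218, 0.105 and 0.285. Without neg.si replicate 3 it was 0.0183, and DESeq2 gave 0.000114.

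VLDLR (chromosome 9, 2621787 to 2660056), the closest relative of LRP8 and also a receptor for complexes of urokinase with its inhibitor, stood at 81.8, 86.5 and 95.4 CPM in neg.si and 55.4, 49.1 and 53.2 CPM in RIPK4.si. Its log2 fold change was -0.74 (SE 0.142, 95% interval -1.06 to -0.42), with adjusted p = 0.0562 in edgeR and 0.00132 in DESeq2. These paralogous receptors thus lay on opposite sides of the controls, with a call in both tools for LRP8 alone. SORT1, which encodes the sorting receptor sortilin (chromosome 1, 109309568 to 109397918), was at 462.0, 534.4 and 564.7 CPM against 375.4, 259.5 and 344.4 CPM, a log2 fold change of -0.67 (SE 0.179). The SORT1 difference passed in DESeq2 (adjusted p = 0.0302) but not in edgeR (0.156). With each library's GC trend removed, edgeR gave 0.0132 for LRP8, 0.0103 for VLDLR and 0.0438 for SORT1.

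In CPM, which is not scaled by length, the highest of the listed genes were FN1, ENO1 and IGF2R. FN1, the matrix protein fibronectin and a plasmin substrate, was at 13435 ± 1951 CPM in neg.si and 12612 ± 3539 CPM in RIPK4.si (log2 fold change -0.09, adjusted p = 0.960). ENO1, a glycolytic enzyme that also binds plasminogen at the cell surface, was at 4965 ± 1199 and 5685 ± 1402 CPM (0.20, adjusted p = 0.887). IGF2R, the receptor for mannose 6-phosphate, was at 579.3 ± 17.2 and 555.0 ± 153.8 CPM (-0.06, adjusted p = 0.972). None of these genes was called, and the groups of libraries overlapped for each.

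Of 17 further serpin genes, 15 were tested and 0 were called in edgeR (0.767% of all genes), with 3 at an unadjusted p under 0.05 (10.8% of all genes). DESeq2 called 1 (2.78% of all genes). Their log2 fold changes were above 0 for 7 and below 0 for 8, with a median of -0.16, and 6 of the 17 are also in the plasminogen list. The gene DESeq2 called was SERPINB5, which encodes maspin, a serpin not known to inhibit proteases, at 0.519, 0.899 and 0.472 CPM in neg.si and 1.23, 1.83 and 1.96 CPM in RIPK4.si. Its log2 fold change was 1.41 (SE 0.359, 95% interval 0.60 to 2.22), with adjusted p = 0.135 in edgeR and 0.0455 in DESeq2. Among the highest in CPM were SERPINH1, a collagen chaperone (1030.1 ± 151.2 and 1051 ± 206.3 CPM, log2 fold change 0.03) and SERPINB6, an intracellular inhibitor (83.9 ± 5.86 and 75.3 ± 11.4 CPM, -0.16).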

How the data were processed

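RNA of 6 cultures was sequenced as paired reads from poly(A) libraries. Per the study's methods and notes, adapters were trimmed with Cutadapt, reads mapped with TopHat to GRCh38.p13, and read pairs counted per gene with HTSeq, ignoring strand. The deposited table holds these raw counts, which were used. Its other columns, not used, hold the authors' normalized counts (a signal divided by size factors), and the authors' fold change as a ratio, log2 ratio with standard error and p-values of their DESeq2 comparison. The members and lists were chosen with earlier results of these data known.

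Counts were tested with edgeR 4.0.16 in R 4.3.3 (TMM, filterByExpr, glmQLFit, glmQLFTest), with Benjamini-Hochberg adjustment over all 16297 genes tested and a call at 0.05. The filter removed PLAU, so 8 members were tested. CPM uses the TMM-scaled library size, and levels per kilobase use the union exon length of GENCODE release 44, which held 24416 of the 24526 identifiers. Log2 CPM profiles used a prior count of 2. Intervals are 95% from the fit. DESeq2 1.42.0, other scaling and filters, a GC correction (lowess span 0.3), a replicate block and leaving out each library were alternatives. Genes named beside members were those with an adjusted p under 0.05 in either tool, the 3 highest in mean CPM of each list, the ANXA2 partners and pseudogenes, RIPK4 and the 3 nearest profiles to PLAT. PLG and 6 more listed genes, ANXA2P3, protein sequences and the promoters of A2M and PLAT were not analysed here. Of the genes this rule named, 2 are not reported here. Fits were tested on simulated data.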

Additional observations from a re-analysis of the deposited data

How the results depend on the processing

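No member was called under any of the 13 alternatives, whose adjusted p ranged from 0.256 to 0.9995. Of 103 values, 95 kept their direction and side of the threshold and 8 changed sign. With the GC trend removed ANXA2 gave a log2 fold change of 0.0012. With 1 library left out, the log2 fold change ran from -0.037 (neg.si 3) upward in PLAUR, from -0.075 (neg.si 3) to 0.67 in SERPINI1, from -0.20 to 0.14 in ANXA2 (above 0 without neg.si 1 or 2 and RIPK4.si 1 or 3) and from -0.32 to 0.12 (RIPK4.si 2) in LRP1. Of other named genes, it ran from -0.27 to 0.12 in FN1, -0.018 to 0.36 in ENO1, -0.22 to 0.16 in IGF2R, -0.097 to 0.18 in SERPINH1 and -0.37 to 0.10 in ANXA2P2. Genes called rose from 125 to 430 in DESeq2 and 533 with the GC trend removed. With 1 library left out they ranged from 0 to 295: 70, 0 and 295 on leaving out neg.si 1, 2 or 3, and 0, 4 and 0 on leaving out RIPK4.si 1, 2 or 3 (unadjusted p under 0.05 in 1153, 1426 and 1086 genes where the count was 0). Plasminogen genes called went from 1 to 4 in DESeq2, to 4 with the GC trend removed and to between 0 and 2 with 1 library left out, and other serpins from 0 to 1 in DESeq2. The cause of these changes was not tested, and each leave-out also had fewer libraries.

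Same-numbered libraries deviated together with correlations of -0.242, 0.251 and 0.346, so the numbers were not taken as pairs, and neg.si 1 correlated best with RIPK4.si 2 (0.413). A replicate block gave 131 calls against 125, none among members. Depth limits PLAU and SERPINI1, which had at most 16 counts in any library.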
